A study of Homo sapiens with 12 samples.

Results

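Of 12 Illumina BeadChip arrays of MDA-MB-231 cells, an ER-negative human breast cancer cell line, 3 had little CDK4 and CDK6 mRNA, and they were compared here with 3 arrays on which CDK4, CDK6 and CCND1 were all high. By label there are 4 groups of 3: control, non-targeting pool siRNA, CCND1 silenced and CDK4/6 silenced. They are written here as no siRNA, non-targeting siRNA, CCND1 siRNA and CDK4/6 siRNA. The study's legends describe actively cycling cells taken the day after transfection. All 12 arrays are of 1 cell line. The study's legends describe its plots as means over independent experiments, but the labels do not tie an array to an experiment and the targets contradict them, so p-values here measure only the spread between these arrays, which may be technical. The sets were found by level: a CDK4 intensity under 1000 and a CDK6 intensity under 500 for the low CDK4/CDK6 arrays, and CDK4 above 2000 with CCND1 above 10000 for the all-targets-high arrays.

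The levels of the siRNA targets contradicted the labels. The low CDK4/CDK6 arrays carry the labels CDK4/6 siRNA 2, then non-targeting siRNA 2, then no siRNA 3. The all-targets-high arrays are labelled no siRNA 1, CCND1 siRNA 1 and CDK4/6 siRNA 1. The treatment of each array is therefore not known, and the sets are named by their levels only. In the deposited table the low CDK4/CDK6 arrays are columns 7, 8 and 9 and the all-targets-high arrays are columns 1, 2 and 3. Each set is thus 3 neighbouring columns, and anything shared by neighbouring columns, such as a chip, cannot be told apart from the set. The other 6 arrays had high CDK4 and CDK6 and low CCND1. Values below are deposited linear probe intensities, given for each set in the order of the labels above, and a level can be compared between arrays for 1 gene but not between genes.

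CDK4 and CDK6 are kinases that, bound to a D-type cyclin such as cyclin D1, the product of CCND1, phosphorylate the retinoblastoma protein RB1. RB1 and its relatives otherwise hold E2F transcription factors in check, and E2F factors drive the genes of DNA replication as cells pass from G1 into S phase. Cyclin E with CDK2 continues the phosphorylation, and the CDK inhibitors of the INK4 and CIP/KIP families oppose it. In a bulk sample, fewer cells in S phase and less of an mRNA per cell cannot be told apart.

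CDK4 was 408.6, 274.9 and 301.2 on the low CDK4/CDK6 arrays, and 2608.5, 2771 and 2560.9 on the all-targets-high arrays. The mean of the low set was 12.4% of the mean of the high set. CDK6 was 333.5, 275.8 and 283.3 on the low arrays, and 1297.3, 1475.8 and 1336 on the high arrays, a mean of 21.7%. These values chose the sets and are a description, and the gap was wide: the highest CDK4 within the low set was 408.6, and the lowest of the 9 arrays outside it was 2167.4. CCND1 was 15393.1, 14186.8 and 14976.8 on the low CDK4/CDK6 arrays, and 13658.8, 13878.3 and 13951.6 on the all-targets-high arrays. The 6 other arrays held 2702.5 to 5100.1 of CCND1, 2167.4 to 2431.1 of CDK4 and 1469.9 to 1752.1 of CDK6. Each target was read by 1 probe. CCND1, CDK4 and CDK6 were left out of all tests.

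**Figure D1:**
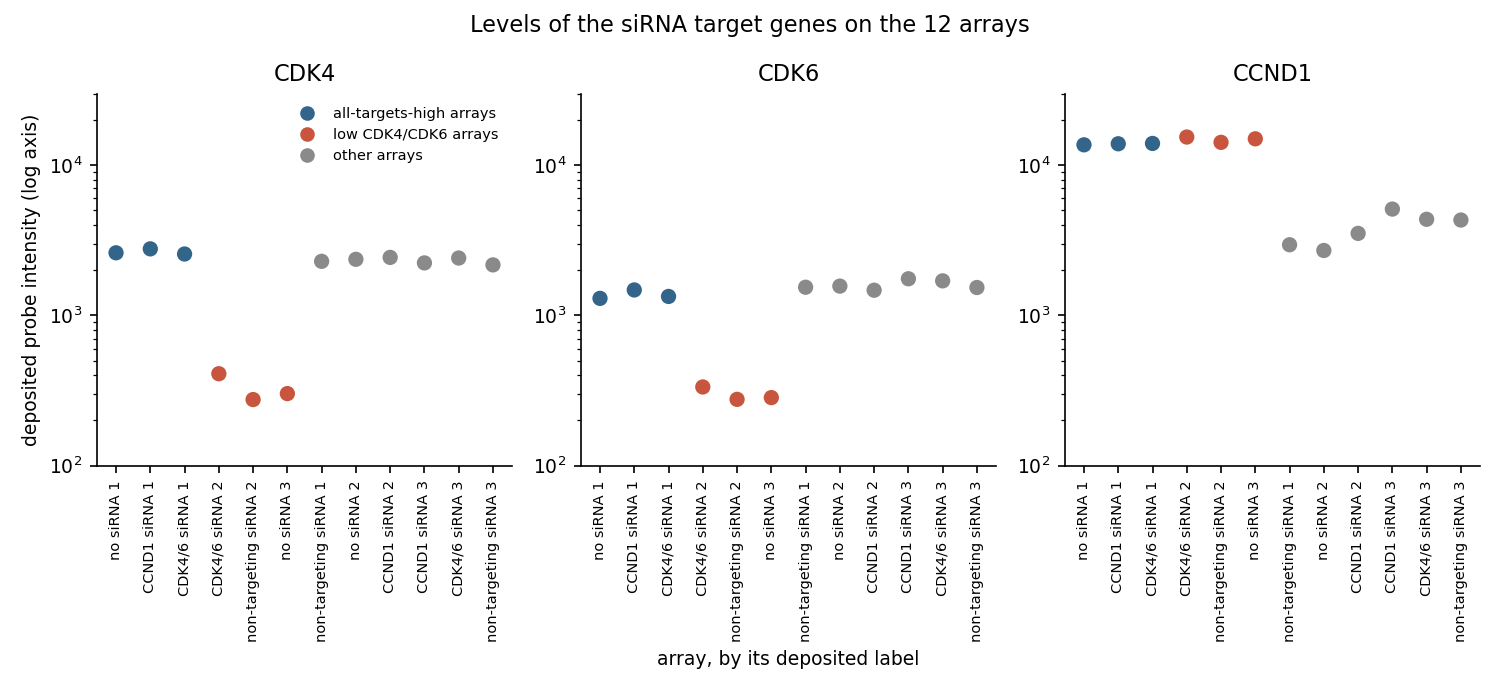
Deposited probe intensity (log axis) of CDK4, CDK6 and CCND1 on each of the 12 arrays, named on the x axis by label and coloured by set. The low CDK4/CDK6 arrays lie at 274.9 to 408.6 for CDK4, and the 6 other arrays are low in CCND1 only.

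A probe was tested if its intensity exceeded 44.5, the background level of these arrays, on at least 3 arrays. This gave 13434 genes, each represented by 1 probe, on log2 intensities tested with limma. Between the sets 459 genes (3.42%) differed at an adjusted p under 0.05, written as called from here on. Of these 377 (2.81% of the genes tested) were lower and 82 (0.61%) were higher on the low CDK4/CDK6 arrays. The median log2 difference over all genes was 0.0079. The decreases were also the larger changes: 131 genes were lower by more than 0.5 on the log2 scale and 8 by more than 1, against 1 and 0 higher. Leaving out 1 array changed the count of called genes to 221 without no siRNA 3, 230 without CCND1 siRNA 1, 250 without no siRNA 1, 283 without CDK4/6 siRNA 1, 304 without non-targeting siRNA 2 and 647 without CDK4/6 siRNA 2. All 3 arrays of one set lay clear of all 3 of the other for 1405 genes in the lower direction (10.5% of those tested) and for 1201 in the higher direction (8.94%).

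Of the 12 largest decreases, the leading one was LRRK1, a leucine-rich repeat kinase. LRRK1 was 333.3, 389.2 and 327.1 on the low CDK4/CDK6 arrays and 897.9, 1047.8 and 973.3 on the high arrays. The sets did not overlap, and the 6 other arrays lay between them, at 463 to 565.9. Its log2 difference was -1.43 ± 0.082 (SE, n = 3 and 3; limma adjusted p = 5.79e-05). Of the 3 further LRRK1 probes tested, 1 gave a difference of -0.23 at mean intensities of 102 and 123, and the others were near background. The next decreases were CDT1 (-1.24), DTL (-1.21), MCM10 (-1.10), GINS2 (-1.08), HELLS (-1.08), EXO1 (-1.06), FEN1 (-1.03), CENPU (-0.99), IMMP1L (-0.98), ATAD2 (-0.97) and MCM2 (-0.94). CDT1, MCM10, GINS2, FEN1 and MCM2 act in DNA replication, DTL directs the destruction of CDT1, EXO1 is an exonuclease of mismatch repair and recombination, HELLS is a chromatin remodeller and CENPU a centromere protein. All 12 kept their call when any 1 of the 6 arrays was left out.

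**Figure D2:**
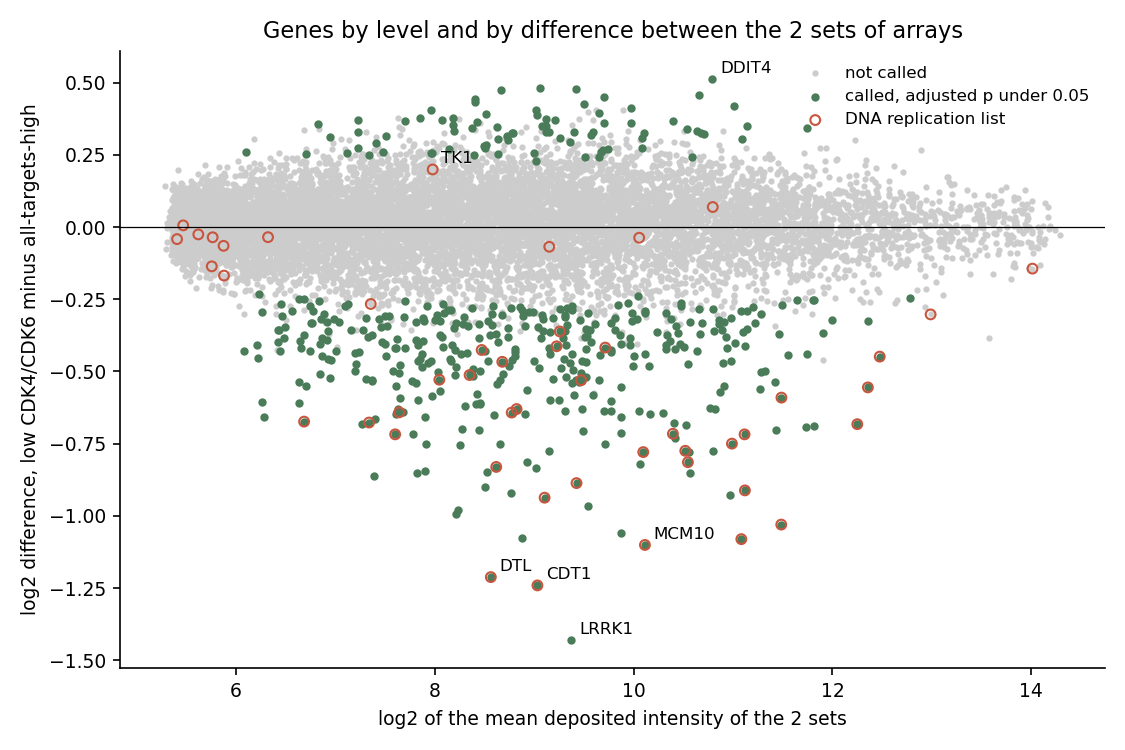
Log2 difference (low CDK4/CDK6 minus all-targets-high arrays) of each gene tested against the log2 of the mean intensity of the sets. Circles mark the DNA replication list, of which 33 members are called, all lower, from -0.36 to -1.24, while uncalled members cluster near the zero line, several of them at low intensity.

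DNA replication genes were lower on the low CDK4/CDK6 arrays, and their list had more called members than any other of the lists examined. A list of 52 E2F-driven and replication genes had 48 members tested. Of these, 33 were lower and 0 higher on the low CDK4/CDK6 arrays, with a median log2 difference of -0.54. Over all genes tested 2.81% were lower and 0.61% higher. LIG1, CHAF1B and E2F8 were below background. Of the 33, 28 kept their call whichever array was left out, and GINS4, MCM7, POLA1, RRM2 and TIPIN lost it in at least 1 case. All 33 were lower on each low CDK4/CDK6 array than on any all-targets-high array, as were 1405 of all genes tested (10.5%). The 33 were called between these same arrays, so this separation is no further support. Of the 15 members not called, 8 had mean intensities under 100 in both sets, which no called member had.

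Origin licensing, the loading of the MCM2 to MCM7 helicase onto origins in G1 by ORC, CDC6 and CDT1, had 9 of 10 members lower. CDT1 was 298.2, 305.3 and 307.2 on the low CDK4/CDK6 arrays and 758.8, 689.1 and 784.2 on the high arrays (log2 difference -1.24 ± 0.062, limma adjusted p = 3.54e-05). The low arrays were close together and below every other array, the other 6 being at 337.9 to 480.2. CDC6, the second loading factor, was dim in both sets, at 74.5, 72.9 and 77.7 against 133.7, 133.6 and 125.5 (limma adjusted p = 0.00024). It too was below all 9 other arrays. Of the helicase subunits, MCM6 was 1769, 1697.5 and 1556.5 on the low arrays and 2931.7, 2760.6 and 2603 on the high arrays (limma adjusted p = 0.00053), and 1678.5 to 2166.1 on the other 6. The low arrays and the 6 others thus overlapped in MCM6. MCM2 (-0.94), MCM4 (-0.81), MCM3 (-0.68), MCM5 (-0.64) and MCM7 (-0.45) were lower as well, and so was ORC1 (-0.68), the large subunit of the origin recognition complex. Further probes of MCM3 and MCM4 gave -0.93 and -0.84, and those of MCM7, which were dim, gave -0.21 (mean intensities of 89.1 and 105.9) and -0.05. ORC6, at the top of the intensity range with means of 15722 and 17313, was not called (-0.14).

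Promoter sequences of 4 of these licensing genes are shown as examples that hold E2F words, chosen after the matches were known, since E2F factors are known to bind promoters of this class. Sequences are RefSeq windows of 300 bases on GRCh38.p14, from 250 bases before to 50 after the annotated start, written 5′ to 3′ on the strand of the gene. Capitals mark matches on either strand to 4 E2F words, TTTCCCGC, TTTGGCGC, TTTCGCGC and TTTGCCGC, and matches that overlap run into a single capital stretch.
MCM6 (chr2:135876394-135876693, strand minus): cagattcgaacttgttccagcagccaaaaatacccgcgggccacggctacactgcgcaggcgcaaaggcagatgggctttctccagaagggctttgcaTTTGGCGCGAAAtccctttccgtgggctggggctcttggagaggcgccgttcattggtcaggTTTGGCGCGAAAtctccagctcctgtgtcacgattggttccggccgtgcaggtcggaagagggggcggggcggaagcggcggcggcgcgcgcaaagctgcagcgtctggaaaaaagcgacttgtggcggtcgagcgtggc
MCM3 (chr6:52284693-52284992, strand minus): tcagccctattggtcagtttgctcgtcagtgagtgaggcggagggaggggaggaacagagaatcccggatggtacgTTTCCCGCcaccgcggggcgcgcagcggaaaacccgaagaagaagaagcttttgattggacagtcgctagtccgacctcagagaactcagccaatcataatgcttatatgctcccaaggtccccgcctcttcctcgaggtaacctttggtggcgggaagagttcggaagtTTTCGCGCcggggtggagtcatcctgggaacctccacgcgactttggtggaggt
MCM7 (chr7:100101348-100101647, strand minus): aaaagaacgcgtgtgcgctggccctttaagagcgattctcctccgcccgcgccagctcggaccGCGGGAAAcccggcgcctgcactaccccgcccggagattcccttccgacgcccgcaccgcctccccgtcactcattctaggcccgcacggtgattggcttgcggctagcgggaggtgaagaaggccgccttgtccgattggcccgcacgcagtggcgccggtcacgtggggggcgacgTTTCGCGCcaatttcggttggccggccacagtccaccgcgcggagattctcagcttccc
CDT1 (chr16:88803539-88803838, strand plus): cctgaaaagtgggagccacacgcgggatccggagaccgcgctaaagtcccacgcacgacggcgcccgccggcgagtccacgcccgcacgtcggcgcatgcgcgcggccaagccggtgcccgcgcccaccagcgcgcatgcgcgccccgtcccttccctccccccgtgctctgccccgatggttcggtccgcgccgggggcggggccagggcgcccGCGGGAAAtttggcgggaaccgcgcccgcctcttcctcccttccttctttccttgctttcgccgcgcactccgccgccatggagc
MCM6 held 2 stretches with a word on each strand, MCM3 and MCM7 held 2 single words each, and CDT1 held 1. Of the licensing genes not shown, MCM2 and CDC6 held a match in 1 place each, and ORC1, also called lower, held none. A word was present in 3.33% of all 27305 promoters in the table (908) and in 4.88% of the 10822 promoters of genes tested. Among the called lower genes it was present in 15.1% (48 of 317 with a promoter), and among the called higher genes in 5.71% (4 of 70). Among the lower replication genes the share was 53.3% (16 of 30), and among the replication genes that were tested but not called it was 28.6% (4 of 14). The list was chosen as E2F-driven and replication genes, so a high share of these words is partly built into it. Lower genes outside the replication, repair and mitosis lists had a word in 10.4% (28 of 269). A match is a description of letters in a window and not a binding site.

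Origin firing, in which CDC45, the GINS complex and MCM10 turn the loaded helicase into a moving one, had 5 of 8 members lower. MCM10 was 704.7, 705.7 and 681.2 against 1388.1, 1624 and 1546.7 (limma adjusted p = 7.07e-05), and a further MCM10 probe gave -0.82. GINS2 was 1517.4, 1324.5 and 1323 against 3067.2, 2798.7 and 2992.4 (limma adjusted p = 9.85e-05). The sets were clearly apart, but the 6 other arrays reached down to 1305.1 for GINS2, below the low CDK4/CDK6 arrays. GINS3 (-0.83), CDC45 (-0.72) and GINS4 (-0.36) were lower. GINS1 (-0.03), and CDC7 (0.0057) with its activator DBF4 (-0.04), were not called and had mean intensities of 44.2 to 55.3.

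Of the polymerases, primase, sliding clamp and clamp loader, 10 of 15 tested were lower. FEN1, the nuclease that trims Okazaki fragments, was 1871.1, 1858.5 and 1902.5 against 3712.2, 4069.1 and 3787 (limma adjusted p = 5.79e-05), and a further probe gave -0.85. PCNA, the sliding clamp, was 1381.4, 1567.2 and 1582.6 against 2323.7, 2551.8 and 2789.5 (limma adjusted p = 0.00099), and its further probes, at mean intensities of 61.2 to 75.1, gave -0.08 and -0.23. Neither gene overlapped between the sets, and both lay on the 6 other arrays between the all-targets-high arrays and values near those of the low CDK4/CDK6 arrays, at 2107.6 to 2453.3 for FEN1 and 1430.3 to 2120.4 for PCNA. The clamp loader subunits RFC4 (-0.91), RFC3 (-0.53) and RFC1 (-0.42) were lower, while RFC2 (-0.07) and RFC5 (0.07) were not called. PRIM1 (-0.89), POLE2 (-0.78), POLE (-0.64), POLA1 (-0.51) and POLD1 (-0.43) were lower.

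Of the genes of nucleotide supply, 3 of 5 tested were lower: TYMS, thymidylate synthase (-0.59), and RRM1 (-0.56) and RRM2 (-0.63), the subunits of ribonucleotide reductase. RRM2 rested on a wide spread, with 436.7, 294.1 and 329.5 against 629.7, 501.9 and 526.3 (limma adjusted p = 0.033). TK1, thymidine kinase, had a difference of 0.20 and was not called (limma adjusted p = 0.21). Chromatin copying had 4 of 5 tested members lower: UHRF1 (-0.77), CHAF1A (-0.72), SLBP (-0.53) and ASF1B (-0.47). CHAF1A, a subunit of the histone chaperone CAF-1, showed little spread in either set, with 140.3, 143.8 and 143 against 246.5, 246.1 and 246.3. DNMT1, the maintenance DNA methyltransferase, was just outside the threshold (-0.30, limma adjusted p = 0.054). Of the fork protection and S phase control genes 2 of 5 tested were lower, DTL (-1.21) and TIPIN (-0.41).

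**Figure D3:**
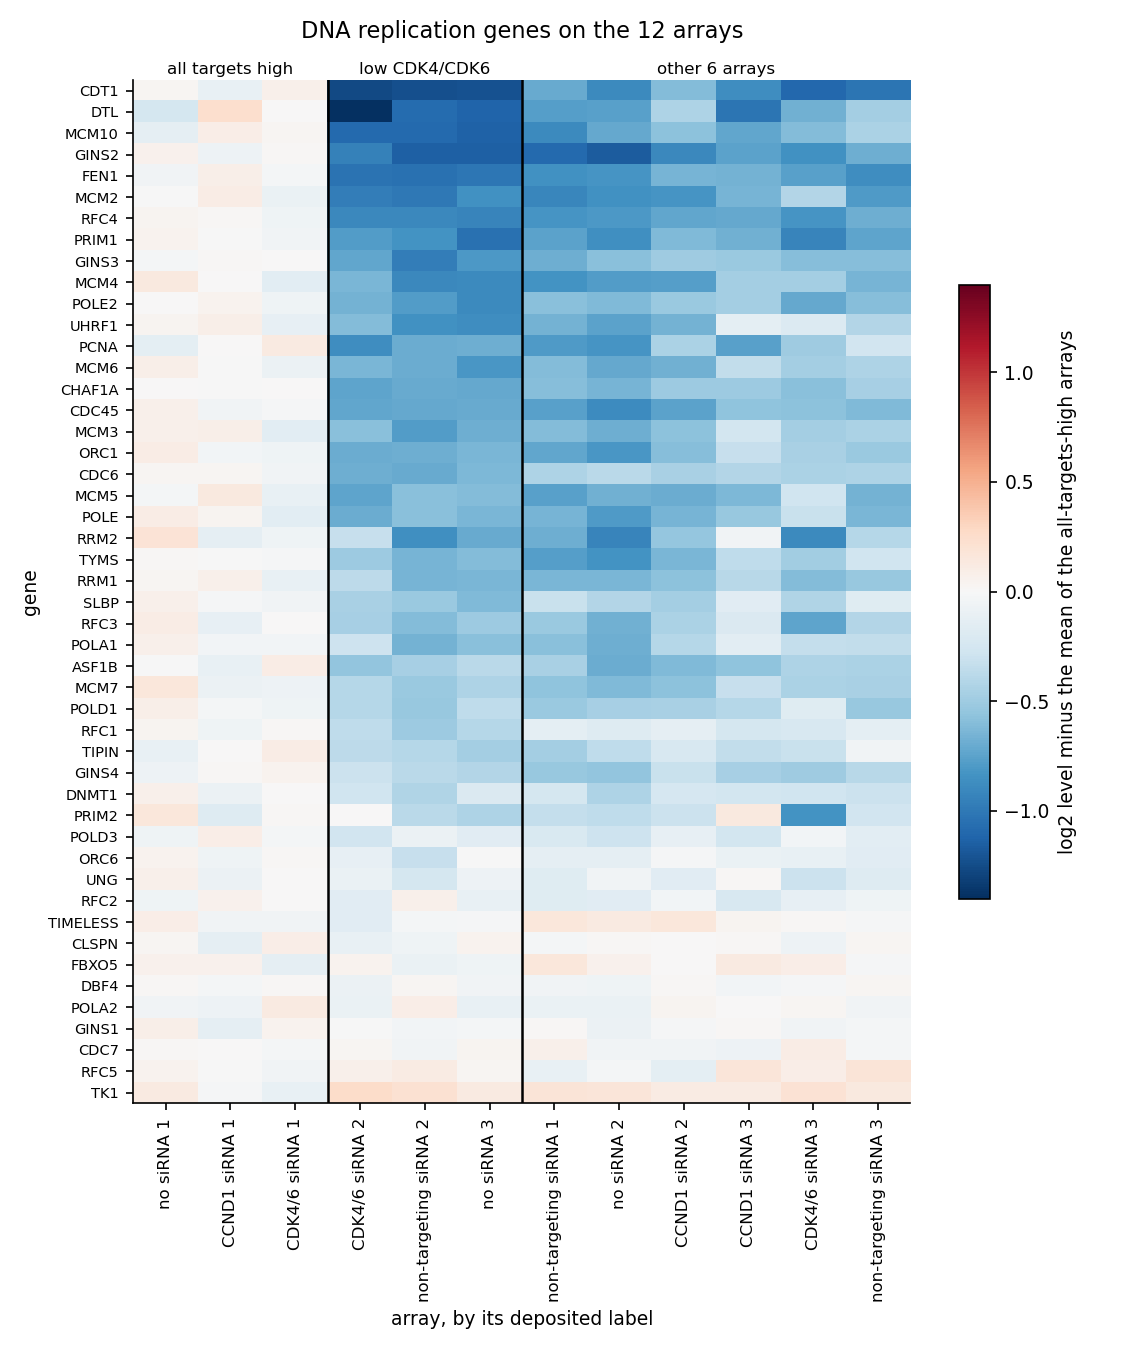
Log2 level of the 48 replication genes tested, relative to the mean of the all-targets-high arrays, on each of the 12 arrays. The upper rows are below the reference on the low CDK4/CDK6 arrays and also on the 6 other arrays. In 9 of the 33 called rows every low CDK4/CDK6 array is below all others, and in rows such as GINS2 and CDC45 some of the 6 others are lower still. The bottom rows, down to TK1, are near 0 throughout.

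More replication genes set the all-targets-high arrays apart from all other arrays than set the low CDK4/CDK6 arrays apart. For 31 of the 33 lower replication genes, every all-targets-high array was above all 9 others, RRM2 and TIPIN being the exceptions. Over all genes tested, 591 (4.4%) had the all-targets-high arrays above all 9 others, and 315 of these were among the 377 lower genes. For 9 of the 33 (CDT1, DTL, MCM10, FEN1, RFC4, GINS3, CHAF1A, CDC6 and RFC1), the low CDK4/CDK6 arrays were below all 9 others, a pattern that 159 of all genes tested (1.18%) had. The 33 are called genes, and of the 459 genes called in either direction 82 had the low CDK4/CDK6 arrays apart from all 9 others. In the opposite direction 43 genes (0.32%) had the low CDK4/CDK6 arrays above all 9 others and 370 (2.75%) had the all-targets-high arrays below all 9 others. With the low CDK4/CDK6 arrays against all 9 others, limma called 0 replication genes, and the list's median log2 difference was -0.23. CDT1 then differed by -0.66 (limma adjusted p = 0.77) and MCM10 by -0.66 (limma adjusted p = 0.47), with the all-targets-high arrays and the 6 low-CCND1 arrays pooled into 1 spread.

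Genes of DNA repair and the checkpoint were lower too, with 14 of 23 tested lower, 0 higher and a median log2 difference of -0.53. By comparison, 2.81% of all genes tested were lower. All 14 kept their call whichever array was left out, and for all 14 the all-targets-high arrays were above the 9 others. The latter held for 315 of all 377 genes called lower, so it is not particular to this list. EXO1 was 646.7, 600.5 and 556.3 against 1344, 1224.6 and 1243.3 (limma adjusted p = 9.85e-05). A second EXO1 probe gave -0.61. The homologous recombination genes RAD54L (-0.76), XRCC3 (-0.70), BLM (-0.66), RAD54B (-0.60), BRCA1 (-0.53) and RAD51AP1 (-0.38) were lower, as were MSH6 (-0.69) of mismatch repair, the checkpoint kinases CHEK1 (-0.60) and WEE1 (-0.42), TOPBP1 (-0.60), FANCI (-0.56), USP1 (-0.63) and RPA2 (-0.54). CHEK2 (-0.15), ATM (-0.07) and RPA1 (-0.22) were not called.

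Fewer mitotic genes were called. Of 50 tested genes of G2 and mitosis 9 were lower and 1 was higher, with a median log2 difference of -0.19. Over all genes tested the shares were 2.81% lower and 0.61% higher. PLK4, the kinase of centriole duplication, was 752.1, 689 and 724.2 against 1224.6, 1139.6 and 1083.6 (-0.66, limma adjusted p = 0.00058). AURKB (-0.47), CDCA3 (-0.39), TTK (-0.38), CCNA2 (-0.38), SPC24 (-0.37), CDK1 (-0.36), MKI67 (-0.33) and MAD2L1 (-0.29) were lower, and further probes of CDK1 and MAD2L1 gave -0.42 and -0.20. PLK4, AURKB and CDK1 alone among the 10 kept their call in every leave-out, and the number lower was 3 without no siRNA 1, 3 without CCND1 siRNA 1, 4 without no siRNA 3, 5 without non-targeting siRNA 2 and 14 without CDK4/6 siRNA 2. For all 9 lower genes the all-targets-high arrays were above the 9 others, as they were for 315 of all 377 genes called lower. Of the 10 called genes, 0 had the low CDK4/CDK6 arrays apart from the 9 others. On the 6 other arrays PLK4 (579.2 to 711.3), CDK1 (1273.3 to 1637.3), MAD2L1 (1253.9 to 1979.9) and CDCA3 (692.3 to 1140.7) reached lower than on any low CDK4/CDK6 array. The remaining lower mitotic genes did so too. KIF23, a kinesin of cytokinesis, was the higher member (0.33), and its further probe gave -0.11. PLK1 (0.13), CCNB2 (0.02), AURKA (0.04) and TOP2A (0.00098) were not called.

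**Figure D4:**
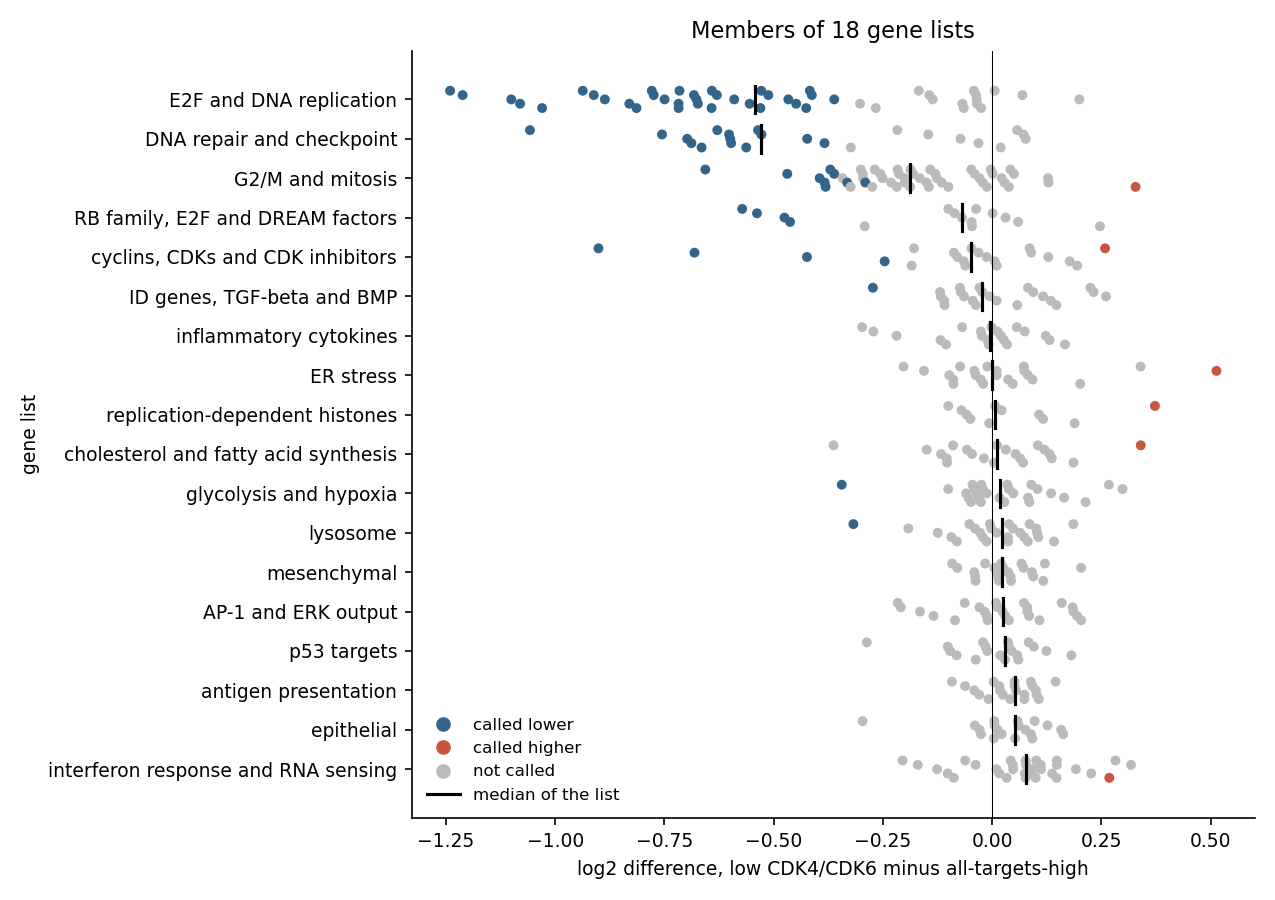
Log2 difference (low CDK4/CDK6 minus all-targets-high arrays) of each tested member of 18 gene lists, with called genes in colour and the median of each list as a bar. Replication (-0.54) and repair (-0.53) have the lowest medians, and the remaining lists from the RB family downward have medians between -0.07 and 0.08.

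Among the cyclins, CDKs and their inhibitors, 4 of 21 tested genes were lower and 1 was higher (2.81% and 0.61% of all genes tested). CCNE1, cyclin E1, was 122.5, 112.1 and 107.6 on the low CDK4/CDK6 arrays and 208.3, 206.1 and 170.1 on the high arrays (log2 difference -0.68 ± 0.082, limma adjusted p = 0.0017). The low arrays were also below the 6 others, at 158.2 to 175.3, and CCNE1 was called against all 9 (-0.55, limma adjusted p = 0.0084). CDC25A, the phosphatase that activates CDK2, was 236.9, 247.3 and 258.9 against 460.1, 514.1 and 463.5 (-0.90, limma adjusted p = 0.00011). A second CDC25A probe went the other way, at mean intensities of 293 and 261 (0.16, unadjusted p = 0.030). CDKN2D, an INK4 inhibitor, was lower (-0.42). CCND3, cyclin D3, was 6527.6, 6370 and 6412.4 against 7611.7, 7825 and 7478.3 (-0.25, limma adjusted p = 0.035), and CCNG2 was higher (0.26, limma adjusted p = 0.047). The calls of CCND3 and CCNG2 were lost when single arrays were left out, with adjusted p up to 0.13 and 0.18. The range of the 6 other arrays took in the low CDK4/CDK6 arrays for CDKN2D (512.8 to 707.1) and CCND3 (5340.7 to 7517). CCND2 (0.13), CDK2 (-0.18), CDKN1B (-0.05), CDKN1C (-0.06), CDKN2A (-0.06) and CDKN2B (-0.09) were not called and overlapped between the sets.

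Of 15 tested RB family, E2F and DREAM genes 4 were lower, beside 2.81% of all genes tested. LIN9, a subunit of the MuvB core, was 177.9, 179.2 and 183.6 against 270, 274 and 266.8 (-0.54, limma adjusted p = 0.00052), and LIN54 of the same complex was lower (-0.46). SKP2, the ubiquitin ligase subunit that targets the inhibitor p27, was lower (-0.57), and so was RBL1, the p107 relative of RB1 (-0.48). SKP2 and RBL1 lost their call in some leave-outs, with adjusted p up to 0.069 and 0.077. For all 4 the all-targets-high arrays were above the 9 others, as they were for 315 of all 377 genes called lower. Of the 4, 0 had the low CDK4/CDK6 arrays apart from the 9 others. The 6 other arrays overlapped with the low set in LIN9 (166.2 to 188.5), LIN54 (169.9 to 202.1), SKP2 (1308.9 to 1620.9) and RBL1 (118.1 to 150.4). RB1 itself was 157.5, 134.1 and 138.7 against 160.4, 147.6 and 156.7, and was not called (-0.10). E2F1 (-0.04) and E2F2 (0.06) overlapped between the sets.

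A smaller group set the low CDK4/CDK6 arrays apart from all 9 others. Against the 9, limma called 21 genes lower (0.156% of those tested) and 1 higher (0.00744%). All 22 were also called against the all-targets-high arrays alone. The 9 include those arrays and the low arrays are the same, so this agreement is no further support. The call against the all-targets-high arrays was kept in every leave-out by 16 of the 22. It was lost in at least 1 by AP2B1, ATP6V0D1, PKIA, TMCO1, UBE2N and VPS25 (limma adjusted p up to 0.167, for TMCO1). OCIAD1, an endosomal and mitochondrial protein, was 1266.7, 1368.9 and 1303.8 on the low CDK4/CDK6 arrays, 2089.1, 2289 and 2404.8 on the all-targets-high arrays and 2208.8 to 2582.7 on the 6 others (log2 difference from the 9 others -0.83 ± 0.058, limma adjusted p = 5.96e-06). SLC11A2, the iron transporter DMT1, was 792.8, 733.2 and 775.4, against 1425.8, 1323 and 1358.9 on the all-targets-high arrays and 1184.1 to 1433.2 on the 6 others (-0.80 ± 0.055, limma adjusted p = 5.96e-06). For both genes the all-targets-high arrays and the 6 others overlapped, and only the low CDK4/CDK6 arrays stood off. The SLC11A2 promoter, shown as an example without a match, held none of the E2F words, and OCIAD1 held none either. Only 4.88% of the promoters of genes tested held a word, so its absence does not set these genes apart.
SLC11A2 (chr12:51026335-51026634, strand minus): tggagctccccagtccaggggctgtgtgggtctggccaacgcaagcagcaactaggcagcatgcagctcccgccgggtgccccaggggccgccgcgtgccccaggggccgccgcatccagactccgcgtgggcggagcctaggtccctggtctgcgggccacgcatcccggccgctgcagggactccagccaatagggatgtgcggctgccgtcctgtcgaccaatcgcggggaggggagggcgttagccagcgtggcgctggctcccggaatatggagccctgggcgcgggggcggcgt
The others lower were DCTPP1 (-0.58), a dCTP pyrophosphatase, NME5 (-0.58), CCNE1 (-0.55), KLHL20 (-0.54), MARCHF3 (-0.49), CD24 (-0.48), POLR3K (-0.46), PKIA (-0.45), ARV1 (-0.45), SMIM13 (-0.42), ATP6V0D1 (-0.41), UBE2N (-0.41), AP2B1 (-0.40), PRKCH (-0.39), FANCE (-0.39), VPS25 (-0.37), AKAP11 (-0.35), NES (-0.35) and TMCO1 (-0.30), each as a log2 difference from the 9 others. Further probes gave differences from the all-targets-high arrays of -0.35 for AP2B1, -0.39 for AKAP11, -0.47 and -0.16 for PKIA, -0.31 and -0.08 for MARCHF3 and -0.0012 for VPS25, the last at background. PLAU, the urokinase plasminogen activator, was the 1 gene higher, at 330, 320.6 and 335.4 against 207.3 to 260 (0.43 ± 0.066, limma adjusted p = 0.015). CCNE1 and ATP6V0D1 belong to gene lists described elsewhere in the text, and the other 20 were named after their values were seen.

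**Figure D5:**
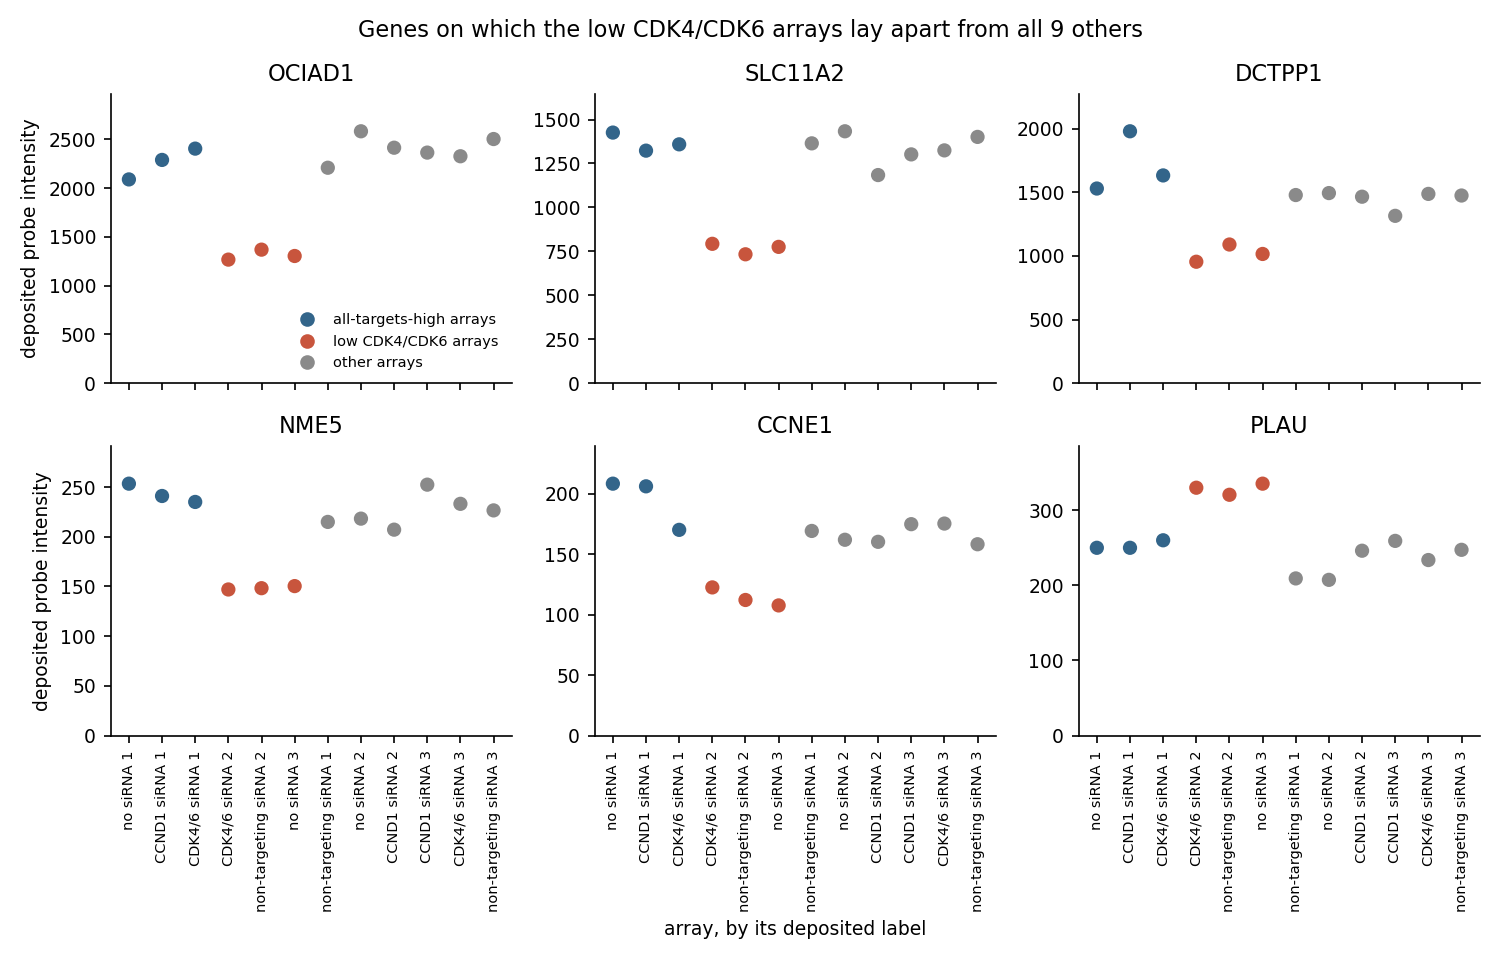
Deposited probe intensity, from 0, of 6 genes on the 12 arrays, coloured by set. In OCIAD1, SLC11A2, DCTPP1, NME5 and CCNE1 the 3 low CDK4/CDK6 arrays lie below all 9 others, and in PLAU above.

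Among the increases against the all-targets-high arrays, DDIT4, a stress-induced inhibitor of mTORC1 signalling, was the leading one. It was 2229.6, 1940.8 and 2064.8 on the low CDK4/CDK6 arrays and 1460.8, 1399.3 and 1486.3 on the high arrays (0.51 ± 0.065, limma adjusted p = 0.0024), and the 6 others, at 1542.4 to 1971.2, overlapped with the low set. OR2V2 (0.48), DDX27 (0.48), VRK3 (0.47), ADIG (0.46), SMIM14 (0.45), C12orf76 (0.44), STAG3 (0.43), TNFRSF14 (0.43), CPA4 (0.42), KDM5B (0.41) and CLIC3 (0.41) followed. In each of these except STAG3 the 6 other arrays overlapped with the low set as well. None of the 12 was called against all 9 others. The call between the sets was lost in at least 1 leave-out by 6 of the 12: C12orf76, KDM5B, OR2V2, SMIM14, STAG3 and VRK3. TSPAN31, named after its values were seen because its annotated span on GRCh38.p14 overlaps that of CDK4, was 661.2, 628.3 and 613.6 against 482.9, 505.7 and 515.3 (0.33, limma adjusted p = 0.013). The 6 other arrays, all high in CDK4, were at 581.5 to 772.9 and overlapped with the low CDK4/CDK6 arrays, and against all 9 others the difference was 0.091 (limma adjusted p = 0.999). The call between the sets was lost without no siRNA 1 (limma adjusted p = 0.070) and without CCND1 siRNA 1 (limma adjusted p = 0.054).

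The genes that the study names at its arrays did not pass the test between these sets. The study reported increases of ID1, SNAI2, CDH11 and TWIST1 after cyclin D1 silencing, whereas CCND1 was high in both sets here. After CDK4/6 silencing it reported ID1 unchanged and SNAI2 modestly raised. VIM and SNAI1 changed in neither case, and TGF-beta, SRC and KLF17 did not change after cyclin D1 silencing. The treatment of these arrays is not known, so the values here do not repeat those comparisons. ID1, an inhibitor of DNA-binding helix-loop-helix factors, was 1450.8, 1251.2 and 1266.7 against 1184.8, 1113.5 and 1277.9 (0.15, limma adjusted p = 0.43). SNAI2 was 1215.4, 1241.9 and 1261.1 against 1155.9, 1121.5 and 1211.6 (0.09, limma adjusted p = 0.52), and its 6 other arrays were higher, at 1318.1 to 1681.5. CDH11 (0.12), VIM (0.04), TGFB1 (-0.11) and SRC (-0.02) were not called. SNAI1, TWIST1 and KLF17 were near background, at 41.1 to 49.4 on the arrays of the sets. Of the other lists, p53 targets (19 tested), antigen presentation (21), epithelial (19), mesenchymal (22), AP-1 and ERK output (25) and inflammatory cytokine genes (20) had 0 called. The remaining lists had 1 each: H2BC5 of the histones (0.37), IFIT5 of the interferon response (0.27), MSMO1 of cholesterol synthesis (0.34) and DDIT4 of ER stress were higher, and ATP6V0D1 of the lysosome (-0.32), SMAD5 of TGF-beta and BMP signalling (-0.27) and ENO2 of glycolysis (-0.34) were lower. Apart from DDIT4, each of these lost its call in at least 1 leave-out. Over all genes tested 3.42% were called, so 0 or 1 called gene in lists of this size is near the overall share.

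All 12 markers of the cell line, among them VIM and CD44, were above background on every array. Of the markers of other cell types, 9 of 12 luminal, 4 of 11 leukocyte, 7 of 12 fibroblast and 4 of 12 endothelial markers were above background on every array, among them CD68 (4276.6 to 5143.1) and COL1A2 (4100 to 5064.4). PTPRC, COL3A1 and VWF were below background on all arrays. None passed the test between the sets: 0 of the 26 tested markers of luminal cells, leukocytes, fibroblasts and endothelium were called. The summed intensity of the leukocyte list was 5247.2 to 5558.8 on the low CDK4/CDK6 arrays and 5010.9 to 5714.4 on the high arrays, and that of the endothelial list 605.8 to 613 and 609.8 to 632.6. The luminal list summed to 9297.8 to 11002.7 against 9063.6 to 9377.4 and the fibroblast list to 5324.6 to 5415.4 against 4833.7 to 5357.6. Log2 values correlated at 0.995 to 0.997 between arrays of different sets, against 0.996 to 0.998 within the low set and 0.998 within the high set, a description over probes that share platform and normalization.

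Grouped by label instead, the arrays labelled CDK4/6 siRNA and non-targeting siRNA gave 0 genes called by limma of 13434 (0%), with 191 genes at an unadjusted p under 0.05 (1.42%), 113 higher and 78 lower. The median log2 difference of the replication list was 0.17. In that comparison each labelled group held 1 low CDK4/CDK6 array. The CDK4/6 siRNA group also held an all-targets-high array (CDK4/6 siRNA 1) and an array low in CCND1. The remaining arrays of the non-targeting group were low in CCND1, so the groups differed in their mix of target levels.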

How the data were processed

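Illumina BeadChip arrays were used for RNA of MDA-MB-231 cells, 12 in all. The authors deposited linear probe intensity values for 48803 probes, already normalised to almost the same distribution on every array (99.97% of ranks within 0.5%) and without background subtraction (lowest value 28, median 44.1). The sources used here name no software for this step. A second table, of unnormalised intensities with detection p-values, has 24 columns that match no sample label and were not used. At most 0.669% of the tested probes held identical values on any pair of arrays.

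Intensities were corrected with normexp (offset 50), quantile-normalised and taken to log2. The background level, 44.5, was the most frequent intensity (39.6) plus the distance to a one-sided p of 0.05 with an SD of 2.99 from the values below it. Of the probes, 26623 (54.6%) exceeded it on at least 3 arrays. In the platform annotation 27578 probes have 1 gene symbol, 13 several and 21212 none, and 27541 matched the gene table by Entrez number, which changed 0 symbols. For each gene the tested probe of highest mean was used. The 6 arrays of the sets were fitted with limma 3.58.1 (R 4.3.3; two-sided, Benjamini-Hochberg over 13434 genes, threshold 0.05), and the fit was tested on simulated data. The number of arrays limits the precision. Figures were drawn with matplotlib 3.10.9.

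Grouping arrays by measured target levels is the definition of the comparison, since the labels and the targets disagree, and no array was assigned a treatment. Conditions by label were compared in a separate limma fit over the 4 labelled groups. The sets, gene lists and tests were chosen with earlier results of these data known. Genes were named by rule: the 12 largest called increases and decreases without overlap, called list members, the genes the study names at its arrays, and the cyclins, CDK inhibitors, RB family and E2F genes. Further genes are stated to be chosen after their values were seen. Where a list had many called members, all of them were named, beyond the 4 per list that the rule sets. RBL2 and CDKN1A were not among the genes tested, and 1 member of the replication list is not reported here. The alternatives covered background correction, normalisation, filter, probes per gene, test, arrays in the fit, array weights, the 9 other arrays as comparison and leaving out each array.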

Additional observations from a re-analysis of the deposited data

How the results depend on the processing

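The count of 459 called genes was 344 to 586 with no background correction (445), offset 16 (344), no further quantile normalisation (459), no filter (490), a filter on all 6 arrays (446), the mean over probes (467), all 12 arrays in the fit (559) and array weights (586). It was 7 (7 lower, 0 higher) with the methods' t-test after Benjamini-Hochberg, where 1404 genes had an unadjusted p under 0.05 and 0 genes of the replication, repair and mitosis lists were called, and 22 (21 lower, 1 higher) against all 9 other arrays, again with 0 genes of these lists; the cause was not tested. The count of higher genes moved to 38 with offset 16 and 129 with array weights, and the count of lower mitosis genes to 14 with array weights. Leaving out each array gave 221 to 647 called, 202 to 469 lower, 19 to 178 higher, 28 to 34 lower replication genes, 14 to 15 repair genes and 3 to 14 mitosis genes, and 202 lower and 19 higher were without no siRNA 3. Of the called genes, 82.1% were lower, 89.0% with offset 16, 72.5% without CDK4/6 siRNA 2, 91.4% without no siRNA 3 and 91.7% without CCND1 siRNA 1. Of 110 called genes followed, 76 kept their call in every leave-out. Against all 9 other arrays the log2 difference changed sign for ID1 (-0.054), SNAI2 (-0.13), CDH11 (-0.058), TGFB1 (0.070), CDKN1B (0.019), RB1 (0.0071), CDCA3 (0.058), CDK1 (0.0083) and MAD2L1 (0.16). In leave-outs it changed sign for TWIST1 (0.0013, 0.017 and 0.025, within -0.0662 to 0.025), KLF17 (-0.024, -0.015 and -0.013, within -0.024 to 0.059), CDKN1B (0.056 and 0.024, within -0.12 to 0.056) and E2F1 (0.0029, within -0.094 to 0.0029), none of them called. TWIST1, SNAI1 and KLF17 had no value with the filter on all 6 arrays. Of 173 further tested probes of called genes, 132 had the direction of the gene and 41 the opposite one, 3 of these at an unadjusted p under 0.05.

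No paired analysis was possible because the low CDK4/CDK6 arrays (replicates 2, 2 and 3) and the all-targets-high arrays (replicates 1, 1 and 1) share no replicate number. For the labelled comparison the replicate block gave 0 called genes, as did the fit without it, the other alternatives and every leave-out (0 to 0). Deviations of samples of the same number correlated at -0.24, -0.17 and 0.27. They were taken from the means of labelled groups that mix target levels, so they cannot show whether samples of the same number share more than the number. Depth is not defined for arrays, and genes near 44.5 could not show a decrease.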
